A study of Oryza sativa Indica Group with 12 samples.

Results

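The 9 genes described here are rice floral organ MADS-box genes that the study's tables or the array's gene annotation pair with a probe set: the B-class genes OsMADS2 and OsMADS16, the C-class genes OsMADS3 and OsMADS58, the E-class genes OsMADS1, OsMADS5, OsMADS7 and OsMADS8, and the AGL6-like gene OsMADS6. They are 9 of 17905 genes that the annotation pairs with at least 1 probe set of their own, and each has 1 probe set among the 57194 rice probe sets of the Affymetrix rice array. RNA came from anthers of field-grown IR64, an indica variety of rice (Oryza sativa). Anthers of several plants were bulked into the replicates, and whether replicates shared plants is not stated. Anthers were taken before meiosis (PMA, 350 to 450 µm long), in meiosis (MA, 500 to 850 µm), with single-celled pollen (SCP, 900 to 950 µm) and with tri-nucleate pollen (TPA, 2000 to 2500 µm), with 3 arrays per stage and 12 in all. Another person ran the arrays of MA than those of the other stages, and the effects of person and of this stage cannot be told apart. Whole anthers hold wall layers, tapetum, connective and germ cells together, and in such bulk samples fewer cells of a type and less RNA per cell cannot be told apart.

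MADS-box proteins of the MIKC type bind DNA as dimers and join into larger complexes, and the classes of proteins in a complex set which floral organ is made. In stamens, B-class proteins act with C-class proteins, and E-class proteins (SEPALLATA-like) bridge the complexes. Rice has duplicated most of these genes, and the copies have come to differ in organ, timing or both.

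Signal here means a GC-RMA intensity as deposited, on a linear scale, and a stage mean over 10 was taken as above background. The array annotation gives the NCBI gene IDs 4325001 for OsMADS2, 4342047 for OsMADS16, 9271572 for OsMADS3, 4338067 for OsMADS58, 4332059 for OsMADS1, 4340218 for OsMADS5, 4346134 for OsMADS7, 4347517 for OsMADS8 and 4330328 for OsMADS6. Apart from sums of marker signals, the signal of 1 probe set was not set against that of another, since probe sets differ in how brightly they hybridise. In such sums the brightest probe sets weigh most, and a sum does not measure the amount of a tissue. Genes were compared by how each changed between stages. A gene was called in a comparison where limma's test, adjusted after Benjamini and Hochberg over all rice probe sets, gave a p of at most 0.005 and the change was at least 2-fold.

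Both the level of 1 TPA array and the scale of all TPA arrays bear on the results. TPA replicate 2 was the lowest of the 3 TPA arrays for 9 of 9 genes, while 35.5% of all probe sets over 10 were lowest on it. On that array the median gene of the 9 lay 0.56 below the mean of the other TPA arrays on the log2 scale, against 0.01 for all probe sets over 10. Of 12 other MIKC MADS-box genes with a TPA mean over 10, 5 were lowest on it, and of 6 floral regulators, 5 were. As for the scale, shifting every array to a common median over probe sets above background moved TPA by 0.50 on the log2 scale. It moved PMA, MA and SCP by -0.23, -0.15 and -0.11. Quantile normalization moved such probe sets less, by a median of 0.17 in TPA and -0.04 in each other stage. Changes into TPA thus depend on the scaling chosen, and for the 9 genes values with the shift to a common median are given beside them. Replicates correlated with Pearson r of 0.967 to 0.984 in TPA and of 0.989 to 0.998 in the other stages, over all rice probe sets.

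**Figure D1:**
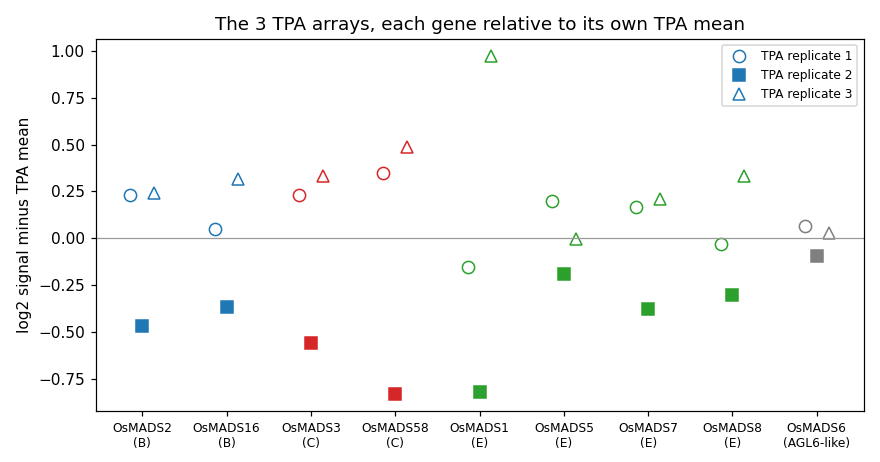
Log2 signal of each of the 9 genes on the 3 TPA arrays, minus the gene's own TPA mean (y axis), by gene (x axis). TPA replicate 2 (filled squares) is the lowest of the 3 arrays for 9 of 9 genes.

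Over the 4 stages, 7 of the 9 genes were called, where 31.9% of all rice probe sets and 63.6% of the 28625 with a stage mean over 10 were called. OsMADS2 (adjusted p = 0.0138) and OsMADS58 (adjusted p = 0.00638) were not, and OsMADS2 also stayed under 2-fold between its highest and lowest stage. OsMADS6 had the widest range of stage means, 4.03 on the log2 scale, and OsMADS2 the narrowest, 0.87. Without TPA replicate 2, 8 genes were called, OsMADS58 among them. With arrays at a common median, 5 were called, namely OsMADS2, OsMADS3, OsMADS1, OsMADS5 and OsMADS6. With quantile normalization, OsMADS58 joined the 7 (adjusted p = 0.00373).

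**Figure D2:**
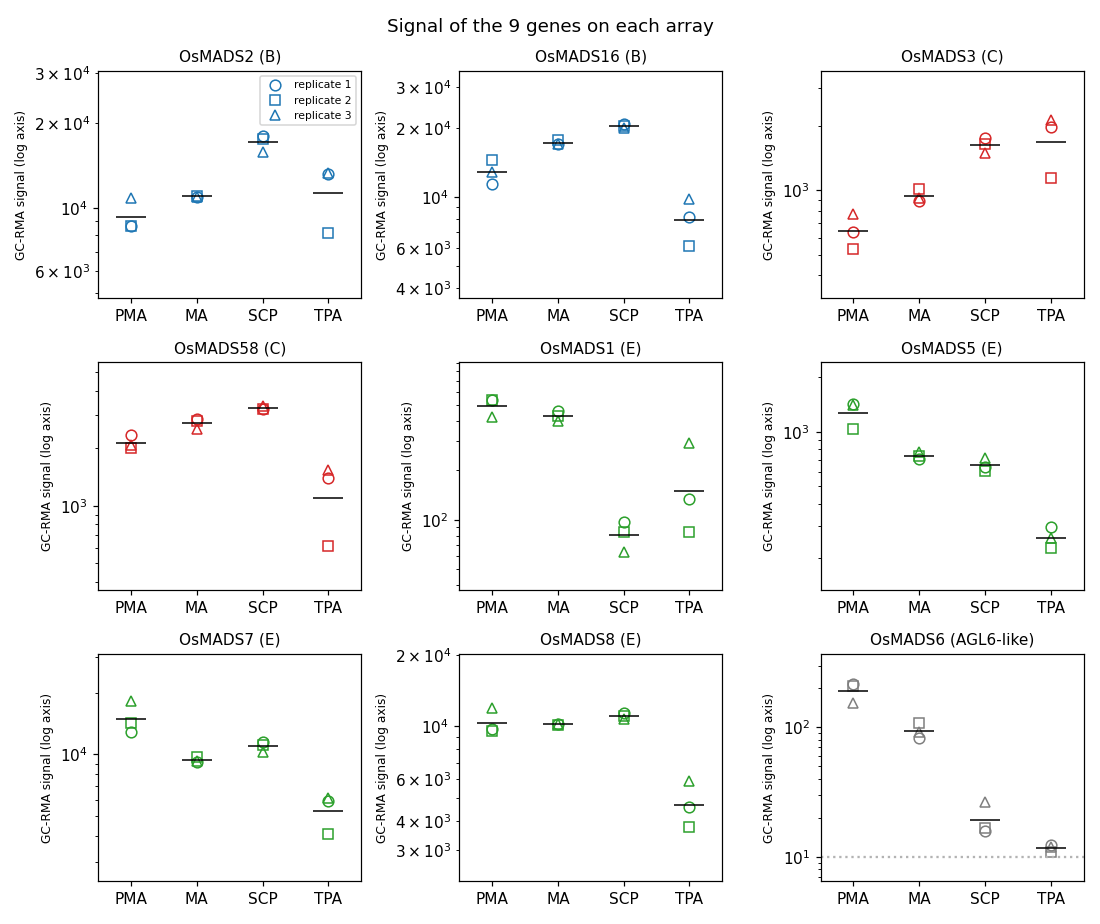
GC-RMA signal (y axis, log scale, with its own range in each panel) of each gene on the 12 arrays by stage (x axis). Symbols are arrays, black bars the mean of the log2 values, and the dotted line in the OsMADS6 panel is the background level of 10. OsMADS3 is highest in SCP and TPA, OsMADS58 and OsMADS16 are lowest in TPA, and OsMADS1 and OsMADS6 drop between MA and SCP.

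Both B-class genes were highest in SCP. OsMADS16 (SUPERWOMAN1), the APETALA3-like gene needed for stamen and lodicule identity, gave signals of 11311, 14497 and 12843 in PMA, 17055, 17758 and 16901 in MA, 20840, 20385 and 19911 in SCP, and 8168, 6128 and 9826 in TPA. The stages followed each other upward from PMA to SCP with no overlap, and every TPA array lay below every array of the other stages. Neither upward step passed the test (log2 change of 0.43 ± 0.15 (SE) into MA and of 0.24 ± 0.15 into SCP). It then fell 2.58-fold from SCP to TPA (log2 change of -1.37 ± 0.15, adjusted p = 7.51e-05) and was 2.18-fold lower in TPA than in MA (adjusted p = 2.63e-04). With arrays at a common median the fall from SCP was -0.76 on the log2 scale, under 2-fold, with an adjusted p of 8.03e-04, and that from MA was -0.48 and not called. Without TPA replicate 2 the fall from SCP was still called and that from MA was not.

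OsMADS2, a PISTILLATA-like gene known above all for lodicule development, gave 8677, 8637 and 10849 in PMA, 10968, 11017 and 10980 in MA, 17982, 17527 and 15740 in SCP, and 13237, 8151 and 13328 in TPA. All SCP arrays lay above all arrays of the other stages, MA lay just above PMA, and TPA overlapped both PMA and MA. In no pair of stages was it called. The closest was SCP against PMA, 1.83-fold (adjusted p = 0.00651), and the change from SCP to TPA was -0.60 ± 0.18 on the log2 scale (adjusted p = 0.0194). At a common median that change was 0.02, and TPA was then called higher than PMA (log2 change of 1.01). The second PISTILLATA-like gene of rice, OsMADS4, which acts in stamens as well as lodicules, was not called over the 4 stages (adjusted p = 0.485). Its stage means were 982, 737, 951 and 1054, and its signal on TPA replicate 2 was 608, against 1205 and 1347 on the other TPA arrays.

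The C-class genes, AGAMOUS-like, parted at the last stage. OsMADS3, the copy best known for stamen identity and for later anther and pollen development, gave 641, 531 and 775 in PMA, 893, 1011 and 915 in MA, 1745, 1652 and 1490 in SCP, and 1977, 1144 and 2125 in TPA. PMA, MA and SCP did not overlap, and TPA lay on both sides of SCP but above MA on every array. The signal was 2.53-fold higher in SCP than in PMA (log2 change of 1.34 ± 0.23, adjusted p = 0.00210) and 2.63-fold higher in TPA than in PMA (1.40 ± 0.23, adjusted p = 8.25e-04). Its single steps of 0.55 into MA and 0.79 into SCP were not called, and TPA differed from SCP by 0.05 ± 0.23 (adjusted p = 0.846). Leaving out PMA replicate 1, PMA replicate 2 or any 1 of the 3 SCP arrays ended the call of SCP against PMA. At a common median TPA was called higher than PMA (2.13) and than MA (1.5). The rise over PMA in TPA was also called without TPA replicate 2.

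OsMADS58, the copy known for floral meristem determinacy and carpel development, gave 2348, 1996 and 2093 in PMA, 2833, 2780 and 2511 in MA, 3228, 3217 and 3320 in SCP, and 1397, 616 and 1537 in TPA. Its first 3 stages also stood in ascending order without overlap, by small steps of 0.34 ± 0.29 and 0.27 ± 0.29 on the log2 scale that did not pass the test, and TPA lay below all of them. From SCP to TPA it fell 2.96-fold (log2 change of -1.57 ± 0.29, adjusted p = 0.00184). TPA against MA, at 2.46-fold lower, had an adjusted p of 0.00560. With arrays at a common median the fall from SCP was -0.96, with an adjusted p of 0.00699, and leaving out any 1 of the SCP arrays also ended its call (adjusted p of 0.00698 to 0.00749). Without TPA replicate 2 it was called.

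Among the 4 E-class genes, OsMADS7 and OsMADS8 are SEPALLATA3-like and are needed in the inner floral organs. OsMADS7 gave 12875, 14166 and 18249 in PMA, 9191, 9730 and 9327 in MA, 11466, 11176 and 10279 in SCP, and 5937, 4078 and 6117 in TPA. PMA was highest and TPA lowest on all arrays. OsMADS7 fell 2.07-fold from SCP to TPA (log2 change of -1.05 ± 0.17, adjusted p = 7.54e-04) and was 2.82-fold lower in TPA than in PMA (adjusted p = 6.73e-05), while MA against PMA gave -0.67 ± 0.17 (adjusted p = 0.0251). The fall from SCP was -0.86 without TPA replicate 2 and -0.44 at a common median, under 2-fold in both, and the value against PMA at a common median, -0.77, was not called either.

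OsMADS8 gave 9688, 9513 and 11870 in PMA, 10179, 10102 and 10235 in MA, 11386, 11025 and 10669 in SCP, and 4565, 3774 and 5859 in TPA. Its first 3 stages lay within 1.08-fold of each other in their means and in part overlapped, and TPA lay below them all. The fall from SCP to TPA was 2.37-fold (log2 change of -1.24 ± 0.14, adjusted p = 9.49e-05). TPA was also 2.21-fold lower than PMA and 2.18-fold lower than MA. Without TPA replicate 2 the fall from SCP remained called and those from PMA and MA did not, and at a common median the fall from SCP was -0.63 (adjusted p = 0.00346), that from PMA -0.42 (adjusted p = 0.0290) and that from MA -0.48 (adjusted p = 0.0157), all under 2-fold.

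OsMADS5 and OsMADS1 belong to the grass LOFSEP branch of the E class. OsMADS5, for which few single-mutant effects are known, gave 1427, 1030 and 1409 in PMA, 706, 730 and 771 in MA, 641, 604 and 719 in SCP, and 297, 227 and 258 in TPA. PMA lay above and TPA below all other arrays, and MA and SCP overlapped. The gene stepped down on both sides of that plateau, by -0.79 ± 0.14 on the log2 scale from PMA to MA (adjusted p = 0.00439, but under 2-fold) and by -1.33 ± 0.14 from SCP to TPA (2.52-fold, adjusted p = 5.10e-05). Between PMA and TPA it fell 4.92-fold (adjusted p = 1.06e-06), a call that held without TPA replicate 2 and at a common median (-1.57). From SCP to TPA the value at a common median was -0.72, under 2-fold.

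OsMADS1 (LEAFY HULL STERILE1), which acts in the lemma, the palea and the floral meristem, gave 532, 532 and 421 in PMA, 460, 429 and 396 in MA, 96.8, 84.6 and 63.6 in SCP, and 133, 84.2 and 292 in TPA. PMA and MA overlapped, every SCP array lay under every MA array, and TPA spread from within the SCP range to above it. The fall from MA to SCP was 5.31-fold (log2 change of -2.41 ± 0.39, adjusted p = 0.00197). SCP was 6.12-fold below PMA (adjusted p = 9.45e-04). TPA exceeded SCP by 0.89 ± 0.39 on the log2 scale (adjusted p = 0.0713), by 1.29 without TPA replicate 2, by 0.40 without TPA replicate 3, and by 1.5 at a common median, where it was called higher (adjusted p = 0.00319). The call of the fall from MA was lost when any 1 of the 6 MA and SCP arrays was left out (adjusted p of 0.00606 to 0.010), with log2 changes of -2.54 to -2.24.

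OsMADS6 (MOSAIC FLORAL ORGANS1), an AGL6-like gene that acts with the other classes in palea, inner organs and meristem, had the widest range of the 9. It gave 217, 209 and 155 in PMA, 81.9, 108 and 91.9 in MA, 15.8, 16.5 and 26.6 in SCP, and 12.3, 11 and 11.9 in TPA. The 4 stages formed a descending series with no overlap, and TPA ended just over the background level. From PMA to MA the drop was 2.05-fold (adjusted p = 0.00918, not called), and from MA to SCP it fell 4.89-fold (log2 change of -2.29 ± 0.21, adjusted p = 7.63e-05). TPA was 16.4-fold below PMA (adjusted p = 3.82e-07), and also called at a common median (-3.30). The last step, -0.71 ± 0.21, was not called (adjusted p = 0.0190) and was -0.09 at a common median. Its paralogue OsMADS17 went from 80.9 and 45.4 in PMA and MA to 17.1 and 21 in SCP and TPA, and was called lower in SCP (4.84-fold) and in TPA (4.16-fold) than in PMA.

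**Figure D3:**
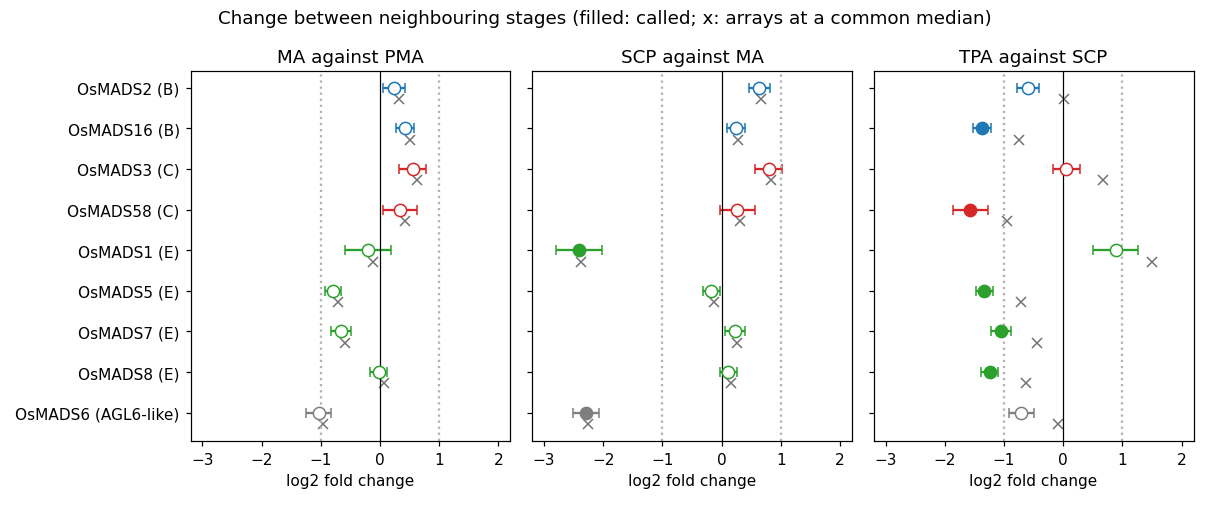
Log2 fold change of each gene (y axis) between neighbouring stages (x axis), with bars for the SE of the fit over 12 arrays. Filled circles were called, dotted lines mark 2-fold, and crosses give the value with arrays at a common median. None of the 9 was called in MA against PMA, 2 were called lower in SCP against MA and 5 lower in TPA against SCP. The crosses of these 5 lie within 2-fold, and that of OsMADS2 lies at 0.02.

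By class and step, the B- and C-class genes among the 9 had higher and the E-class genes lower mean signal in MA than in PMA. For OsMADS8 the sign turned at a common median (0.061). The PISTILLATA-like gene OsMADS4, which is not among the 9, went down in this step (log2 change of -0.39 ± 0.30, not called), unlike the B-class genes here. From PMA to MA, limma called 0 of 9 genes (background 3.31% of probe sets higher and 3.03% lower, and 12.7% in either direction among those over 10). At an unadjusted p under 0.05, OsMADS16 and OsMADS3 had higher signal and OsMADS5, OsMADS7 and OsMADS6 lower, 5 genes in all. The share of all probe sets passing this unadjusted limit was not counted, here or in the comparisons below. Of the 9, both B-class and both C-class genes were higher by 0.24 to 0.55 on the log2 scale. The 4 E-class values ran from -0.79 to -0.02. In 4 genes all MA arrays lay above all PMA arrays (13.9% of probe sets) and in 3 below them (19.4%). Such shares, here and below, include probe sets at or under background, where small offsets set the order. They were not taken over those above 10 alone, as the 9 genes are.

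From MA to SCP, 0 genes were called higher and 2, OsMADS1 and OsMADS6, lower. The background was 3.86% higher and 4.47% lower, and 16.6% in either direction among probe sets over 10. At an unadjusted p under 0.05, 2 genes were higher, OsMADS2 and OsMADS3. All SCP arrays lay above all MA arrays in 6 genes (15.1% of probe sets, those at or under background included) and below them in 2 (46.8%). The other 3 E-class genes differed by -0.17 to 0.22 on the log2 scale in this step, so that the E class held its only called change in OsMADS1. Carpel markers were also lower in SCP than in MA, 2 of 3 being called, though all 3 were higher in MA than in PMA, unlike both called genes. All 3 listed markers were measured, and their summed signal was 97.4 to 122 in MA, 24.4 to 29.7 in SCP, 40.5 to 59.9 in PMA and 43.2 to 62 in TPA. Of them, the ovule gene OsMADS13 averaged 51.9 in MA and was under 10 in the other 3 stages, and DROOPING LEAF (DL) averaged 38.1, 48.1, 14.8 and 40.0. OsMADS21 averaged 12.2 in MA and 7.02 in SCP and was not called. Meiocyte markers, 7 of 10 listed being measured, were called lower in 6 cases in the same step, with summed signals of 4250 to 4488 in MA and 193 to 435 in SCP. Of 3 lemma and palea markers listed, 2 were measured and neither was called in this step. Their sum was 800 to 903 in MA and 782 to 1191 in SCP. The part of any of these tissues or cells in the results for OsMADS1 and OsMADS6 was not tested.

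From SCP to TPA, 5 genes were called lower and 0 higher (background 14.9% and 8.22%, and 46.2% in either direction among probe sets over 10). They were 1 of 2 B-class genes, 1 of 2 C-class genes and 3 of 4 E-class genes. At an unadjusted p under 0.05, 7 genes were lower and 1, OsMADS1, was higher. In 7 genes the TPA arrays all lay below the SCP arrays, where 23.0% of rice probe sets showed this, and in 0 genes above them (56.7%). These shares again include probe sets at or under background. Without TPA replicate 2 the count was 4, OsMADS7 being lost, and at a common median 0 were called lower and 1, OsMADS1, higher. With quantile normalization the same 5 genes were called lower, by -1.57 to -1.03 on the log2 scale. The median of the 9 changes was -1.05 on the log2 scale, against 0.04 over all rice probe sets and -0.34 over those above 10. Tapetum markers, 9 of 14 listed being measured, moved with these falls: 8 were called lower and 1, RTS, higher (4.74 in SCP and 3007 in TPA). The summed signal of the 9 markers, in which bright probe sets weigh most, was 113426 to 121999 in SCP and 3328 to 6989 in TPA. In TPA the sum was mainly the signal of RTS and of GAMYB, the latter with a mean of 2205. The 2 mature pollen markers measured of 8 listed summed to 9.75 to 18.7 in SCP and 13532 to 19221 in TPA. Of 3 green tissue markers listed, 2 were measured, and their sum was 2513 to 7687 in SCP and 152 to 1020 in TPA, OsrbcS being called lower (11.6-fold). Of the 2 lemma and palea markers measured, OsMADS14 was called higher in TPA than in SCP (2.33-fold) and OsMADS15 lower (2.06-fold). The part of tapetum, pollen, green tissue or lemma and palea in the values of the 5 genes was not tested.

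Against PMA, the longer spans called 1 gene higher and 2 lower in SCP (background 5.19% and 6.55%), and 1 higher and 4 lower in TPA (background 8.59% and 16%). Among probe sets over 10, 23.4% were called in SCP and 49.2% in TPA, in either direction. OsMADS3 was the gene called higher in both. In TPA the 4 lower genes were OsMADS5, OsMADS7, OsMADS8 and OsMADS6. Without TPA replicate 2, OsMADS8 was lost from these, and at a common median 2 remained, OsMADS5 and OsMADS6, with OsMADS2 and OsMADS3 called higher. TPA against MA called 0 higher and 4 lower, OsMADS16, OsMADS5, OsMADS8 and OsMADS6 (background 8.26% and 15.7%). Among probe sets over 10, 47.8% were called in either direction. With quantile normalization OsMADS58 was called lower as well. At an unadjusted p under 0.05, 1 gene was higher in TPA than in MA, OsMADS3, and it was called without TPA replicate 2, when OsMADS16 and OsMADS8 were not. At a common median the same comparison called 1 gene higher, OsMADS3, and 1 lower, OsMADS6, with OsMADS5 at -0.85. These comparisons share arrays with those between neighbouring stages.

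To compare genes without dependence on the scale of an array, the log2 ratio of each of the 36 pairs of genes was taken on every array, and its differences between stages were tested by an exact permutation of the arrays over the stages. Such a ratio shows unequal change and does not tell which of its genes changed. Ratios differed between stages in 34 of 36 pairs at an adjusted p under 0.05 over the 36 pairs, 8 of 8 within a class and 26 of 28 between classes. The other pairs were OsMADS16 with OsMADS58 (exact p = 0.774) and OsMADS58 with OsMADS8 (exact p = 0.180), whose stage means of the ratio lay within 1.2-fold and 1.42-fold. The smallest p this design allows is 6.49e-05. The 36 pairs share genes and are not independent of each other. How often ratios of genes outside these pairs differ between stages was not counted. The count of 34 therefore has no reference and does not show that these genes diverge more than others. Among all probe sets over 10, limma called 63.6% over the 4 stages.

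The C-class genes diverged in their ratio. Relative to its PMA mean, the log2 ratio of OsMADS3 to OsMADS58 was 0.07, 0.28 and 0.28 in MA, 0.85, 0.78 and 0.58 in SCP, and 2.24, 2.63 and 2.21 in TPA. The 3 later stages did not overlap, TPA replicate 2 stood beyond the other TPA arrays in the same direction, and by TPA the ratio had moved 5.13-fold from PMA (exact p = 2.60e-04, adjusted p = 6.23e-04).

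In the B-class pair, the log2 ratio of OsMADS2 to OsMADS16 was -0.18, -0.23 and -0.16 in MA, 0.24, 0.24 and 0.12 in SCP, and 1.15, 0.87 and 0.90 in TPA, again relative to PMA. TPA stood apart from all other stages, at 1.96-fold its PMA ratio (exact p = 0.00227, adjusted p = 0.00315). In each of these 2 pairs, then, 1 gene lost signal relative to the other between SCP and TPA on all 3 arrays of TPA.

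Within the E class, the ratio of OsMADS7 to OsMADS8 had the smallest range over the stages, 1.57-fold, yet was lower in MA (-0.68, -0.59 and -0.67 relative to PMA) than in PMA on every array (exact p = 6.49e-05, adjusted p = 2.60e-04). The ratio of OsMADS1 to OsMADS8 had the largest, 6.54-fold, with -2.49, -2.64 and -3.00 in SCP and -0.71, -1.10 and 0.06 in TPA. It went down after meiosis and came back toward its PMA value by TPA, and the ratios of OsMADS1 to OsMADS5 and to OsMADS7 did the same (adjusted p of 0.00550 to 0.00800 over these 3 pairs). OsMADS5 lost ground to OsMADS8 at the first step, by 0.77 on the log2 scale, and to OsMADS7 by 0.80 in all by TPA.

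**Figure D4:**
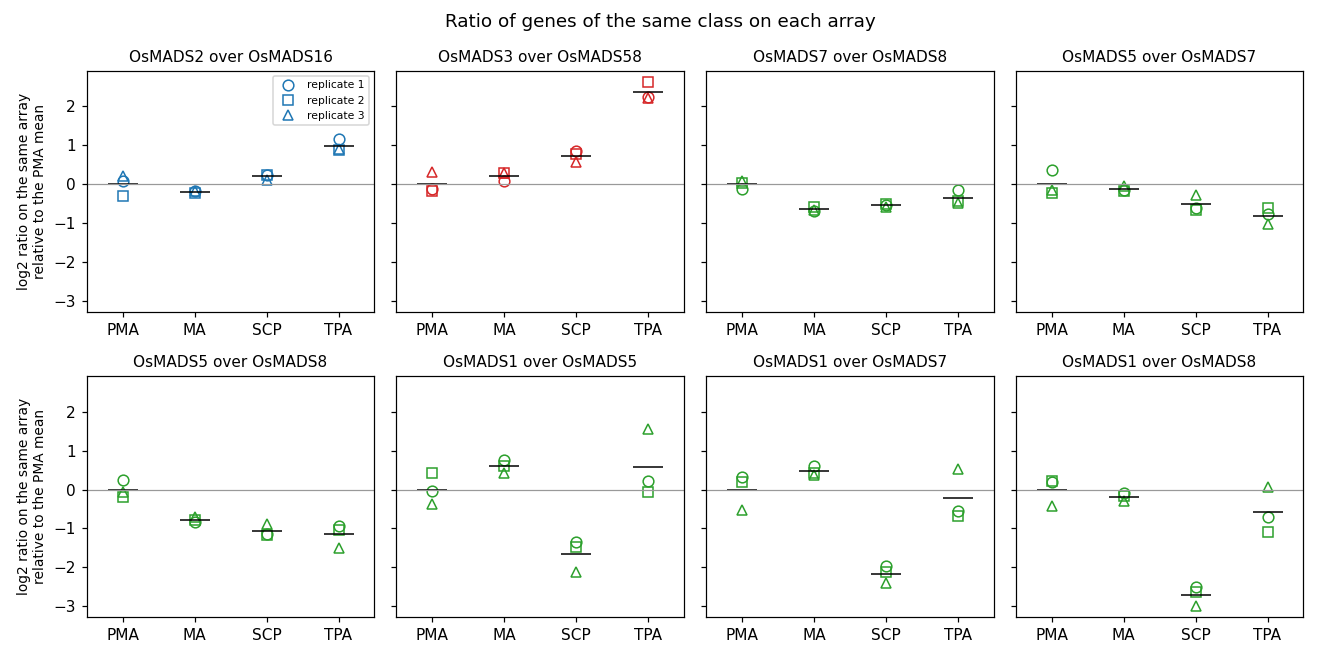
Log2 ratio of 2 genes of the same class on each array relative to the mean ratio in PMA (y axis) by stage (x axis). Symbols are arrays and black bars are means. The ratio of OsMADS3 to OsMADS58 lies at 2.21 to 2.63 in TPA and that of OsMADS2 to OsMADS16 at 0.87 to 1.15, and the ratios of OsMADS1 dip in SCP.

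Between classes, B and C parted from the E-class genes at the first step, most from OsMADS5 and OsMADS7. Relative to PMA, the log2 ratio of OsMADS2 to OsMADS5 was 1.08, 1.04 and 0.96 in MA, that of OsMADS2 to OsMADS7 was 0.93, 0.86 and 0.91, and that of OsMADS3 to OsMADS5 was 1.33, 1.46 and 1.24. Over the 8 pairs of a B- or C-class gene with OsMADS5 or OsMADS7, the mean ratio in MA was 0.90 to 1.34 above that in PMA, and no MA array overlapped PMA in any of them. All 8 passed the exact test over the 4 stages (adjusted p of 2.60e-04 to 0.0197), and this step was not tested by itself. Ratios of these B- and C-class genes to the other E-class genes also rose, by 0.25 to 0.57 for OsMADS8 and 0.44 to 0.75 for OsMADS1. Among these, only the ratio of OsMADS2 to OsMADS1 overlapped between MA and PMA. The widest divergence was that of OsMADS3 and OsMADS6, whose ratio moved 43.1-fold from PMA to TPA (adjusted p = 3.60e-04). OsMADS1 and OsMADS6, which both dropped after meiosis, differed most in TPA, where their ratio stood 4.95-fold over that in PMA (adjusted p = 0.00443). As the signal of OsMADS6 in TPA was near background, ratios with it there are compressed.

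Over the 12 arrays, the genes most alike were in part of different classes. The closest pair in log2 signal was OsMADS16 of class B with OsMADS58 of class C (Pearson r = 0.946), then OsMADS5 with OsMADS7 (0.936), OsMADS58 with OsMADS8 (0.906) and OsMADS16 with OsMADS8 (0.897). Of the E class, OsMADS5, OsMADS7 and OsMADS8 resembled each other, with r = 0.890 for OsMADS7 with OsMADS8 and 0.844 for OsMADS5 with OsMADS8, and OsMADS1 had r of 0.283 to 0.527 with them. The B-class pair had r = 0.547 and the C-class pair r = -0.05. The most opposed genes were OsMADS3 and OsMADS6 (r = -0.91). These values describe 12 arrays that share stages and scale, and they carry no test.

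**Figure D5:**
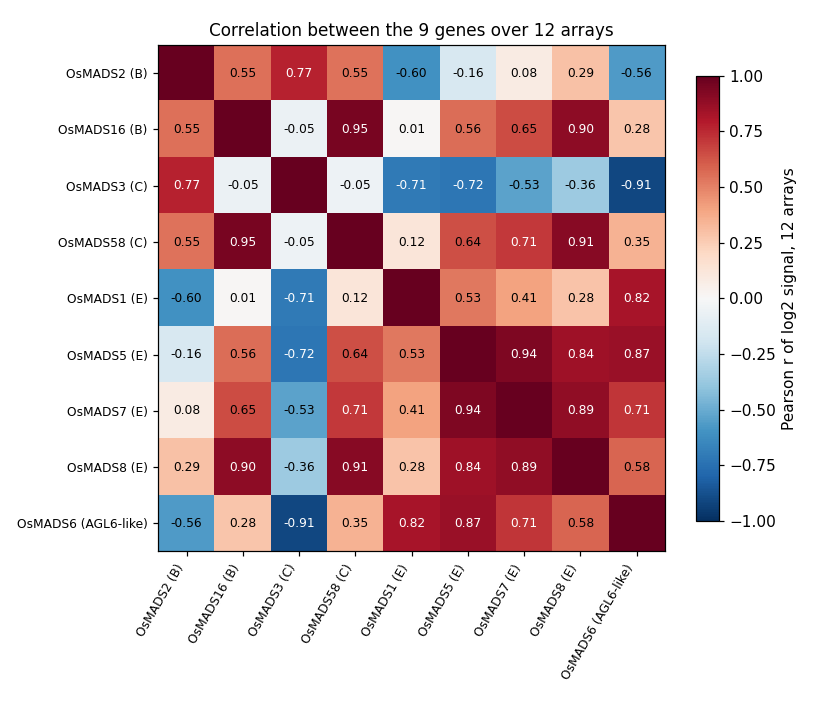
Pearson r of log2 signal between the 9 genes (both axes) over the 12 arrays, on a colour scale from -1 to 1. The 2 genes of class C have r = -0.05, and the highest value, 0.946, joins OsMADS16 with OsMADS58.

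Among 1564 named genes searched for the pattern most like that of each called gene, by Pearson r over the same 12 arrays, OsMADS16 was closest to the auxin response factor gene ARF3 (r = 0.979), OsMADS3 to the potassium transporter gene HAK17 (0.956) and OsMADS5 to the protein kinase gene CIPK6 (0.990). OsMADS7 came closest to MAGO1, for a subunit of the exon junction complex (0.983), and OsMADS8 to FNR, for a ferredoxin-NADP reductase (0.993). OsMADS6 was closest to eIF3k, a translation initiation factor gene (0.990), and OsMADS1 to SRP19, for a subunit of the signal recognition particle (0.929). Next to it for OsMADS1 came OsMADS17 (r = 0.926) and the anther cell fate gene TDL1A (0.920). ARF3 had stage means of 631, 931, 1979 and 139, with the highest in SCP and the lowest in TPA as for OsMADS16, and HAK17 had 65, 331, 1255 and 3063.

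Of 24 other MIKC MADS-box genes listed, 19 were measured. From PMA to MA, 2 were called higher and 1 lower (background 3.31% and 3.03%). From MA to SCP the counts were 2 and 1 (3.86% and 4.47%). From SCP to TPA they were 3 and 4 (8.22% and 14.9%), with a median log2 change of 0.06. Among probe sets over 10, 12.7%, 16.6% and 46.2% were called in these steps, in either direction. The 4 with the lowest adjusted p over the stages were OsMADS27, OsMADS55, OsMADS13 and OsMADS15. OsMADS27, of the ANR1-like branch, averaged 1325 in TPA and 5.37 to 5.43, under the background level, elsewhere (adjusted p = 2.56e-10). OsMADS55, an SVP-like gene, averaged 16.9, 73.8, 1887 and 15.1 (adjusted p = 4.45e-07). OsMADS15, an APETALA1-like gene of lemma and palea, averaged 398, 62.8, 89.1 and 42.5 (adjusted p = 1.17e-05). Another LOFSEP gene, OsMADS34, known from the inflorescence and sterile lemma, averaged 319 in PMA and 113 to 123 later, and was called lower in TPA than in PMA (2.96-fold).

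Floral meristem and organ regulators were measured for 8 of 24 listed genes, and 6 of the 8 were called lower in SCP than in PMA, with none higher, where 6.55% and 5.19% of all probe sets were. The other 16 listed genes were not analysed here. MSP1, a receptor kinase gene that limits the number of sporogenous cells, averaged 6244, 846, 1253 and 48.5 (adjusted p over the stages of 1.75e-06). TDL1A, for the ligand of MSP1, averaged 409, 414, 11.5 and 66.8, and so dropped between MA and SCP as OsMADS1 and OsMADS6 did. FON1, a receptor kinase gene that limits floral meristem size, averaged 2089 in PMA and 68.8, 43.8 and 39.5 later. OSH1, a knotted1-like meristem gene, averaged 88.5, 14.3, 6.07 and 11.8, by a probe set that may cross-hybridise. Of the 9 MADS-box genes, 4 had their highest stage mean in PMA, namely OsMADS1, OsMADS5, OsMADS7 and OsMADS6, as FON1, MSP1 and OSH1 did.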

How the data were processed

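Per the labels, total RNA of anthers of the 4 stages was labelled with biotin and hybridised to 1-colour Affymetrix rice arrays. The authors made the deposited intensities by GC-RMA (background by probe GC content, quantile normalization, 1 value per probe set) in 1 project with arrays of other tissues, which are not analysed here; detection calls were not used. Of 57381 probe sets, 187 control and reporter probe sets were left out and 57194 were tested, of which 22436 were paired with 1 gene. Precision is limited by how few arrays there were. Log2 values of all 12 arrays were fitted with limma 3.58.1 in R 4.3.3 (lmFit, eBayes, 8 residual degrees of freedom), with a moderated F-test over the 4 stages and 6 pairs of stages. Calls needed a p of at most 0.005 after Benjamini-Hochberg adjustment over all tested probe sets, and a fold of at least 2. The fit was tested on simulated data. Within-array ratios were tested in Python with NumPy 2.4.6 over all 15400 distinct splits of 12 arrays into 4 sets of 3, adjusted over 36 pairs at 0.05. Levels are linear stage signals, and folds come from differences between stage means of log2 values.

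Each gene was measured by its brightest probe set, and each of the 9 had only 1. Other genes named were, of 2 lists, the called genes with the 4 lowest adjusted p, and OsMADS4, OsMADS17 and OsMADS34 whatever their values. The genes most like a called gene were the 3 with the highest Pearson r among named genes also called over the 4 stages. The 9 genes and all lists, markers included, were chosen with earlier results of these data known. Alternatives were another variance model, quantile normalization, arrays shifted to a common median, only probe sets over 10, a pseudocount of 10, a replicate block, an adjusted p of 0.05, only the 2 compared stages, and leaving out each array. The deposited values carry no coordinates, and none are given here.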

Additional observations from a re-analysis of the deposited data

How the results depend on the processing

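With arrays at a common median, the count of genes called was 1 rather than 5 in TPA against SCP (1 higher, 0 lower) and 2 rather than 4 in TPA against MA (1 higher, 1 lower). Fits of only the 2 compared stages called 1 gene in TPA against SCP, 2 rather than 5 in TPA against PMA, and 2 in TPA against MA, with fewer residual degrees of freedom. In MA against PMA, 1 gene (OsMADS6) rather than 0 was called when probe sets at or under 10 were dropped and at an adjusted p of 0.05. The replicate block called 1 rather than 2 genes in SCP against MA (OsMADS1 lost) and changed no other count of genes by over 1.5 times. Same-numbered arrays of 2 stages deviated together little (r of -0.06 to 0.10 over 18 pairs, against -0.09 to 0.08 over 36 pairs of different numbers). This cannot exclude that arrays of the same number shared a batch.

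Leaving out 1 array gave counts of 6 to 8 over the 4 stages, 0 to 1 in MA against PMA (1 without SCP replicate 3), 1 to 2 in SCP against MA (1 without any 1 of its 6 arrays), 4 to 5 in TPA against SCP, 2 to 3 in SCP against PMA, 4 to 6 in TPA against PMA and 3 to 6 in TPA against MA, and 34 to 35 pairs with unequal change. The pairs numbered 34 with quantile normalization, with a pseudocount of 10 and with the block. Of single log2 changes between neighbouring stages, those near 0 changed sign: OsMADS8 in MA against PMA was 0.061 at a common median and -0.076 to 0.084 with 1 array left out (positive without PMA replicate 3), OsMADS2 in TPA against SCP was 0.017 at a common median, and OsMADS3 in TPA against SCP was -0.11 to 0.33 with 1 array left out (negative without SCP replicate 3, TPA replicate 1 or TPA replicate 3). In 537 other cases direction and call were kept, in 20 the call was lost and in 4 gained. Each gene had 1 probe set, so averaging probe sets could not be run. An unmoderated analysis of variance called the same genes as limma in all 7 comparisons. Causes were not tested.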
